A study of Homo sapiens with 14 samples.

Results

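Loss of CTNNB1, the gene of beta-catenin, was compared with the wild type in neural progenitors grown from H9, a human embryonic stem cell line. The comparison takes 8 of the 14 libraries of the series, 5 labelled CTNNB1 knockout (KO) and 3 labelled wild type (WT), and the 16197 of 58051 table entries with a normalized read count of 10 or more in at least 3 of these 8 libraries. All groups went through the same differentiation toward progenitors of the medial ganglionic eminence (MGE), the ventral forebrain region where many cortical interneurons arise. Aggregates received SB431542 (2 µM), which blocks TGF-beta receptors, and LDN193189 (200 nM), which blocks BMP receptors, on days 0 to 6. The ventralizing agents SHH (250 ng/mL) and purmorphamine (0.3 µM), a smoothened agonist, followed on days 10 to 17, and total RNA was taken from neurospheres on day 25. A further group of 3 libraries came from an H9 line that carries an inducible CTNNB1 transgene and received no doxycycline (OE without Dox). It had the same treatment and is set beside KO and WT for part of the genes and lists. A gene given without its OE without Dox value is not thereby shown to differ between KO and that line. The 3 libraries of the same line with doxycycline (0.1 µg/mL, days 17 to 25) entered the fit only for its estimate of spread. The labels give neither the way the knockout was made, nor the number of clones, nor whether replicates were separate differentiations, so p-values measure the spread between these libraries, which may be technical.

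Beta-catenin has 2 known roles. At adherens junctions it links cadherins to alpha-catenin and actin. In canonical WNT signalling, a complex built on APC and AXIN marks it for breakdown until a WNT ligand binds a frizzled receptor with LRP5 or LRP6. The stabilized protein then enters the nucleus and works with TCF and LEF factors. In the developing forebrain, WNT and BMP ligands from the dorsal midline are known for promoting dorsal fates, and SHH from the ventral side for promoting MGE fates. NKX2-1 marks the MGE within the telencephalon.

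Depth was even, at 5233270 to 5622830 reads assigned to genes in the 8 libraries, and the floor of 3 reads equalled a normalized count of 2.60 to 2.84. The first principal component, with 54.3% of the variance, had scores of -28.1 to -39.6 in KO and 51.8 to 61.7 in WT. The second, with 17.2%, held KO 1, KO 2 and WT 1, at -20.5, -29.7 and -41.7, apart from the other 5 libraries, at 16.5 to 21.9. That split was 2-fold or more within both groups in 21 genes, of which 2 were called between KO and WT. Genes picked for a wide spread within groups are hard to call, so this count does not measure how the split affects the calls. Without these 3 libraries 797 genes were called higher and 853 lower, against 1127 and 1138 with them. Counts given below are repeated without these 3 libraries, or without a single library, where that moves them by over 1.5 times.

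**Figure D1:**
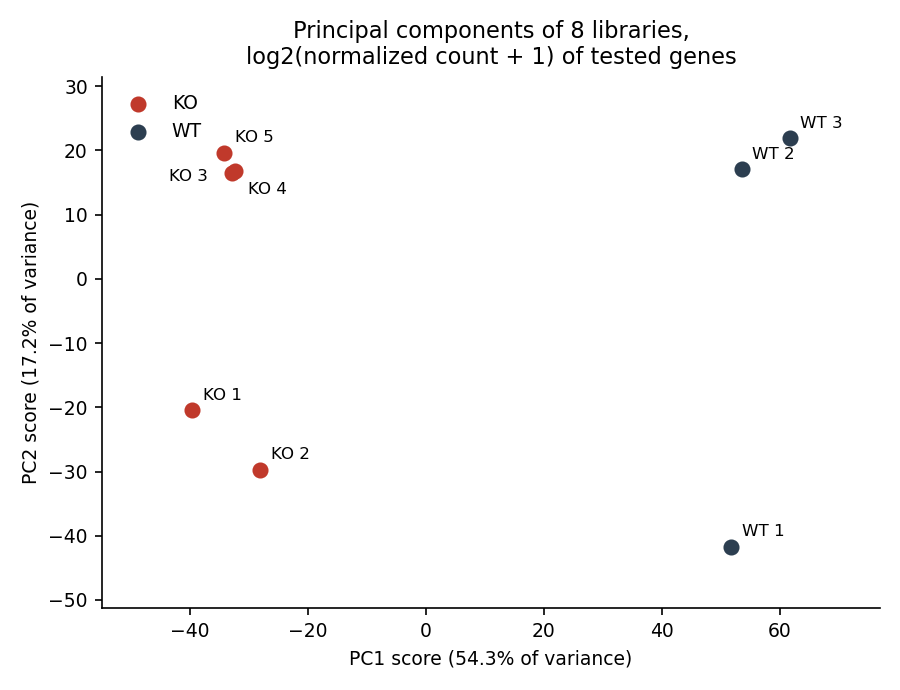
Scores of the 5 KO and 3 WT libraries on the first 2 principal components of log2(normalized count + 1) over the 16197 tested genes, one point per library. KO lies left and WT right on the first component, and KO 1, KO 2 and WT 1 lie below the other 5 libraries on the second.

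Limma on log2(normalized count + 1), with Benjamini-Hochberg adjustment over the 16197 genes, called 1127 genes as higher in KO (6.96% of tested genes) and 1138 as lower (7.03%) at an adjusted p below 0.05, relative to WT. These shares are the background for each count below. Large changes were mostly falls: 28 genes were higher and 134 lower by 8-fold or more. The median log2 fold over all tested genes was -0.01. In 97 higher genes every WT library was under 10, and in 153 lower genes every KO library was. Against OE without Dox, the same KO libraries had 59 genes higher (0.364%) and 255 lower (1.57%). These 2 counts rested on single libraries: the higher genes numbered 23, 22, 36 and 38 without OE without Dox 2, OE without Dox 3, KO 2 and KO 5, and the lower genes 141 without OE without Dox 2. Both comparisons share the KO libraries, and their values are given side by side for part of the genes. The largest rises and falls named below were picked from called genes whose KO and WT libraries did not overlap. For genes named in this way, the separation of libraries was a condition of the choice. Where stated below, it describes these genes and is not a separate result. The share of all tested genes without overlap is not given here.

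**Figure D2:**
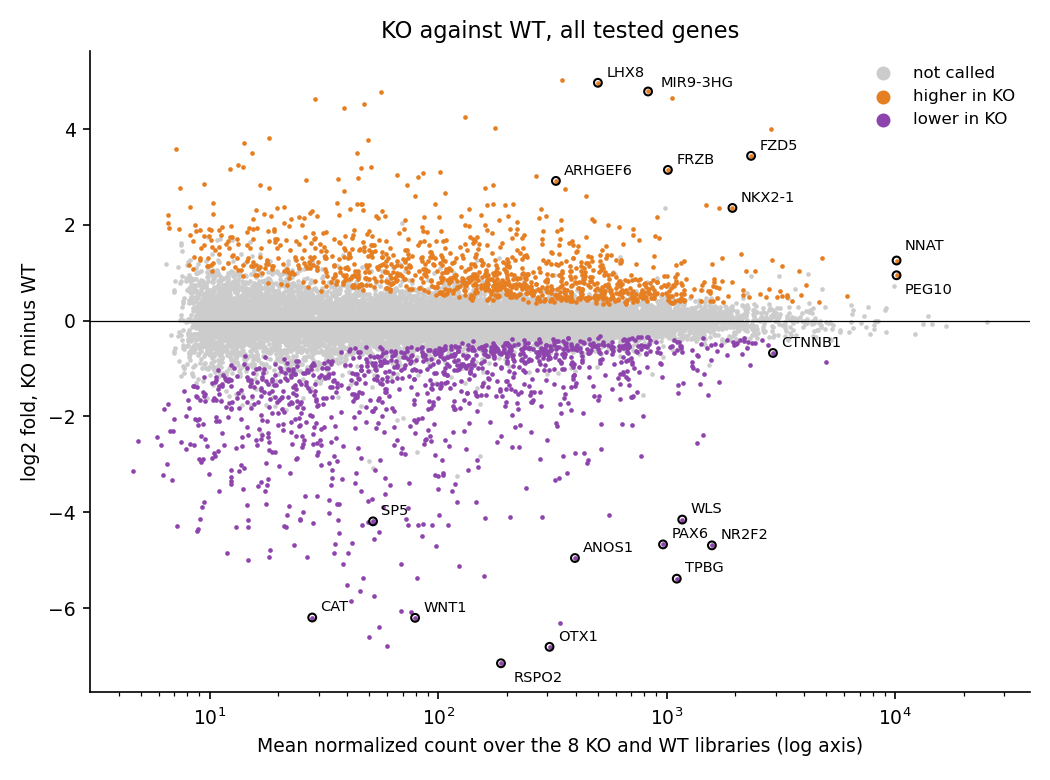
Log2 fold of KO minus WT against the mean normalized count over the 8 libraries (log axis) for each tested gene. Orange genes were called higher in KO (1127) and purple genes lower (1138). The deepest falls, such as RSPO2 at -7.15, exceed the largest rises, such as LHX8 at 4.97.

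The targeted gene was checked first. CTNNB1 (chromosome 3, 41194741 to 41260096, plus strand, hg38) had normalized counts of 2483, 2779, 2385, 2178 and 2090.3 in KO and 4393, 3803 and 3248 in WT. Every KO library lay below every WT library, yet the transcript was still abundant in KO. The log2 fold was -0.67 (SE 0.13, adjusted p = 0.00101), and against OE without Dox, at 3345 ± 276, it was -0.49 (adjusted p = 0.0514, not called). The labels do not say which part of the gene was altered, and beta-catenin protein was not measured here. Of 13 catenins and related armadillo genes tested, CTNNA3, an alpha-catenin, was higher (67.4 ± 8.58 in KO and 23.9 ± 11.6 in WT; values after ± are SDs, n = 5 and 3). CTNNA1, the widespread alpha-catenin (1498 in KO and 2122 in WT), and CTNND2, a neuronal delta-catenin (518 in KO and 794 in WT), were lower beside CTNNB1. JUP, the close relative of beta-catenin known as plakoglobin, was at 322 ± 55.3 in KO and 312 ± 86.1 in WT and was not called (log2 fold 0.06, adjusted p = 0.912).

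Of 20 genes of the destruction complex, which brakes beta-catenin, 5 were higher (25.0%) and 1 was lower in KO. APC, the scaffold of the complex, had 1562, 1659, 1354, 1371 and 1671 in KO and 724, 679 and 541 in WT. The 2 groups did not overlap, and the log2 fold was 1.24 (adjusted p = 7.63e-06). AMER2, a membrane protein that binds APC, was at 676 ± 159 in KO and 159.7 ± 42.3 in WT (log2 fold 2.08), and the AXIN regulator TNKS was higher by 0.52. AXIN2, itself a WNT target, was the member that fell, to 93.4 in KO against 275 in WT. In OE without Dox, APC stood at 1121 and AMER2 at 564, and AXIN2, at 173 there, was lower in KO in that comparison as well (adjusted p = 9.58e-04). Of 19 nuclear partners, LEF1 (91.3 in KO and 427 in WT) and TCF7L2 (470.0 in KO and 747 in WT) were among 4 lower ones. TLE2 (219 in KO and 44.98 in WT) and TLE5 (1773 in KO and 1179 in WT), of the Groucho corepressor family, were among 3 higher ones. Without KO 1, KO 2 and WT 1, 2 nuclear partners were lower.

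Feedback targets, the textbook readout of the pathway, were lower in KO: of 15 known WNT feedback targets 13 were lower and 1 was higher in KO, with a median log2 fold of -1.46. SP5, a zinc finger repressor induced by beta-catenin, had 6.47, 5.67, 2.83, 8.98 and 8.05 in KO and 120.2, 124 and 139 in WT. No KO library came near the WT range (log2 fold -4.19, SE 0.26, adjusted p = 5.96e-09). BAMBI, a decoy receptor that damps BMP and TGF-beta signals, fell to 12.7 in KO against 135 in WT, and TNFRSF19, a receptor known as TROY, fell to 21.2 in KO against 391.5 in WT. DACT1, which binds dishevelled, was the 1 higher member (132 in KO and 57.2 in WT). Relative to OE without Dox, with SP5 at 27.4 and TNFRSF19 at 131, both genes were lower in KO, and 7 of the list were called lower in that comparison.

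TCF and LEF factors are known to bind CTTTGAA or CTTTGAT, so these 7-base words were searched on both strands in the RefSeq promoter table (GRCh38.p14, 250 bases before to 50 after the start site). Of 15 tested feedback targets 10 had a promoter there, and 4 of the 10 held a match: SP5, DKK1, SP8 and DACT1. Of these, DACT1 was higher in KO. The promoters of APCDD1, BAMBI, LEF1, TCF7 and TNFRSF19, all lower in KO, held no match. The stretches around the matches upstream of 3 lowered genes are shown because they hold the words themselves, 5′ to 3′ on the gene's strand, with the matches in capitals; TTCAAAG is CTTTGAA read from the other strand.
SP5 (chr2:170715169-170715279, plus strand, matches 148, 109 and 84 bases before the start site): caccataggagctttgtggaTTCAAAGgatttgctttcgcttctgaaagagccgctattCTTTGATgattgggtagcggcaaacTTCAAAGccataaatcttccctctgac
DKK1 (chr10:52314166-52314212, plus strand, match 95 bases before the start site): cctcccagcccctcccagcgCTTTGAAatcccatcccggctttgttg
SP8 (chr7:20786911-20786957, minus strand, match 51 bases before the start site): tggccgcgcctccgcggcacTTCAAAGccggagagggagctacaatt
A match was held by 6.98% of all 27305 promoters and by 4.02% of those of the 11149 tested genes with a promoter. The shares were 5.19% of 828 genes higher in KO and 5.25% of 857 genes lower, so the word was about as frequent in both directions. A match is a description of the letters and does not show binding.

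Genes for WNT ligands and for the protein that releases them were lower in KO. Of 12 WNT ligands tested 10 were lower and 0 higher in KO (median log2 fold -2.45). WLS, the carrier that every secreted WNT needs to leave the cell, had 113, 137, 214, 238 and 125 in KO and 3233, 2456 and 2849 in WT. The highest KO library was far below the lowest WT library, with a log2 fold of -4.15 (SE 0.26, adjusted p = 2.97e-08). TPBG, a membrane glycoprotein that inhibits canonical WNT signals, had 57.3, 85.9, 81.2, 50.3 and 65.3 in KO and 2535, 2960.1 and 3023 in WT, again with no overlap (log2 fold -5.39). WNT1, a ligand of the midbrain and dorsal midline, was at 1.85 ± 1.14 in KO and 208 ± 75.7 in WT, and WNT3A, the cortical hem ligand, at 1.48 ± 1.03 in KO and 119 ± 46.5 in WT. The KO means of both are below the floor of 3 reads. WNT7B, a forebrain ligand, was at 11.7 ± 6.18 in KO and 895 ± 156.5 in WT. The 2 ligands that were not called were WNT3 (90.1 in KO and 153 in WT, adjusted p = 0.171) and WNT5B (200.4 in KO and 175 in WT, adjusted p = 0.607). In OE without Dox WLS stood at 868 and WNT7B at 241, both above KO (adjusted p = 4.63e-05 and 4.85e-05).

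R-spondins, secreted proteins that strengthen WNT signals by removing the ligases that clear frizzled receptors, were lower in KO. RSPO2 had 1.85, 1.89, 2.83, 3.59 and 1.79 in KO, 354, 740.0 and 401 in WT and 63.1, 73.1 and 164 in OE without Dox. The 3 groups did not overlap, and the log2 fold of KO over WT was -7.15 (SE 0.33, adjusted p = 1.82e-10). RSPO3 was at 2.05 ± 1.40 in KO and 180.4 ± 10.8 in WT, and RSPO1 at 19.9 ± 3.87 in KO and 291 ± 76.7 in WT. ZNRF3, one of the ligases and itself a feedback target, was lower (132 in KO and 316 in WT). The R-spondin receptor LGR4 was at 1291 in KO and 1016 in WT and was not called (adjusted p = 0.315). Of 19 R-spondins, WNT co-receptors and planar polarity genes 6 were lower and 3 higher; 1 was higher without WT 2, and 1 without KO 1, KO 2 and WT 1.

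Receptors split by member. The summed level of the frizzled family was 7832 to 9697 in KO, 4296 to 7113 in WT and 8061 to 8399 in OE without Dox. Against OE without Dox 1 frizzled gene was called, as lower in KO. FZD5, a frizzled of the anterior forebrain and eye field, had 3868, 4057, 2480.0, 3071 and 4077 in KO and 735, 303 and 142 in WT. All KO libraries exceeded all WT libraries, and WT varied widely (log2 fold 3.44, adjusted p = 5.53e-05). FZD8 was higher too (653 ± 149 in KO and 176 ± 137 in WT), whereas FZD1 (98.5 in KO and 442 in WT), FZD7 (198 in KO and 819 in WT), FZD9 (82.4 in KO and 199 in WT) and FZD10 (1.63 in KO and 90.5 in WT) were lower, so 2 of 10 frizzled receptors were higher and 4 lower. FRZB, a secreted antagonist that binds WNTs, had 1419.8, 1629, 1177, 1734 and 1626 in KO and 154, 224 and 139 in WT. The groups lay far apart (log2 fold 3.15, adjusted p = 7.94e-09), and KO was above OE without Dox as well, at 741 ± 171 (log2 fold 1.05, adjusted p = 0.00628). Without OE without Dox 2 that last call was lost, at a log2 fold of 0.84. The related SFRP2 ran the other way, at 465 ± 81.0 in KO and 2846 ± 1072 in WT. Of 15 antagonists 8 were lower and FRZB was the 1 that was higher.

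**Figure D3:**
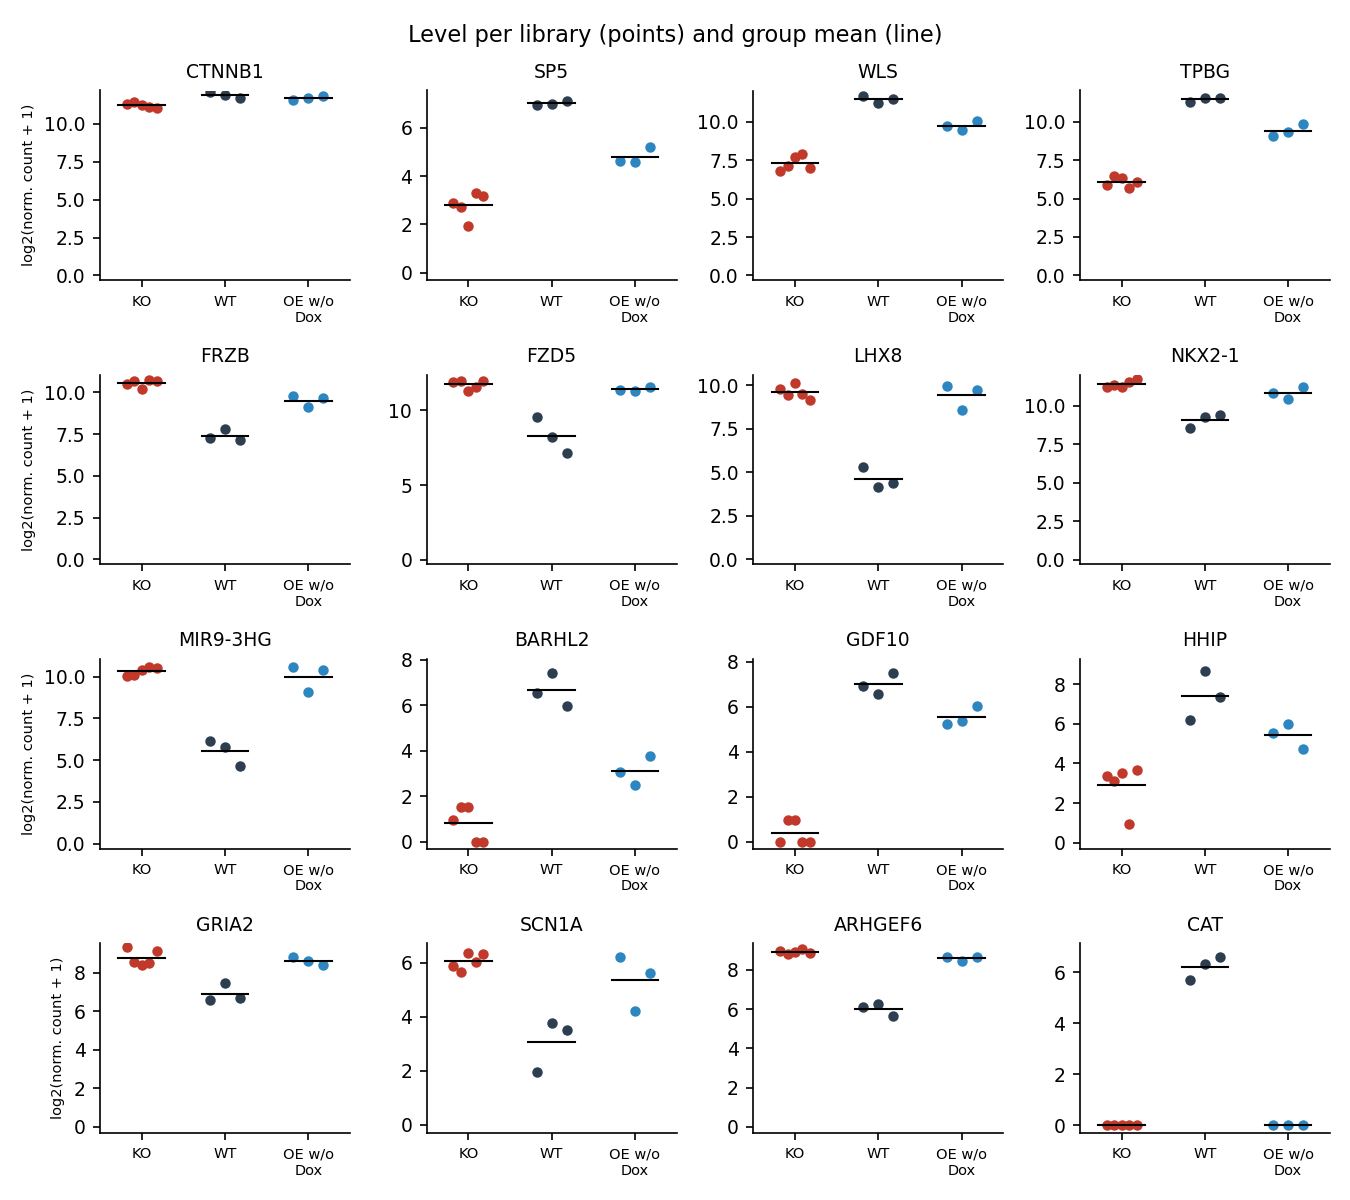
Log2(normalized count + 1) of 16 genes in each KO, WT and OE without Dox library (points), with the mean of the log2 values as a line. WT stands above KO for CTNNB1, SP5, WLS, TPBG, BARHL2, GDF10, HHIP and CAT and below it for the other 8. OE without Dox lies near KO for MIR9-3HG, ARHGEF6 and CAT.

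The labelled identity was checked on markers of the MGE. NKX2-1 (chromosome 14, 36516392 to 36521149, minus strand) had 2387, 2584, 2412, 3010.2 and 3475 in KO, 373, 621 and 664 in WT and 1845, 1378 and 2394 in OE without Dox (log2 fold 2.35, SE 0.34, adjusted p = 3.59e-04, KO against WT). Every KO and WT library thus held NKX2-1. LHX8, a factor of MGE cholinergic neurons, was at 785 ± 212 in KO and 24.9 ± 11.3 in WT. LHX6, the factor of postmitotic MGE interneurons, was at 239 ± 83.6 in KO and 92.1 ± 16.6 in WT and was not called (adjusted p = 0.103). GSX1 (77.3 in KO and 16.5 in WT) and GBX1 (40.4 in KO and 7.20 in WT), homeobox genes of the ganglionic eminence, were higher in KO. DLX2, a homeobox gene shared by all ganglionic eminences, was at 569 in KO and 304 in WT (adjusted p = 0.0421), and its call was lost without any 1 library (limma, adjusted p = 0.051 to 0.178). Of 17 tested members of the MGE list 6 were higher in KO and 3 lower, against WT, with a median log2 fold of 0.33. The 3 lower members made up 17.6% of the list, above the background of 7.03%. They are not among the MGE genes given in this paragraph, which were higher or not called and do not stand for the whole list. The progenitor genes SOX2 (2829 in KO and 3065 in WT) and NES (8327 in KO and 8313 in WT) were not called. Against OE without Dox neither NKX2-1 (log2 fold 0.59) nor LHX8 (0.16) was called. In bulk RNA, fewer cells of a type and less RNA per cell cannot be told apart, here and in what follows.

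SFTA3, the neighbour of NKX2-1 on chromosome 14, was higher too, at 648 ± 119 in KO and 109 ± 36.4 in WT. The strand setting of the counting is not given in the sources used here, so reads of overlapping and antisense genes cannot be told apart.

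Host genes of miR-9, a microRNA known for moving neural progenitors toward neuron formation, were among the largest rises. MIR9-3HG had 1069, 1097, 1331, 1535 and 1453 in KO and 71.0, 54.5 and 24.3 in WT. Every KO library was far above WT (log2 fold 4.79, adjusted p = 8.99e-05), and OE without Dox, at 1126 ± 518, overlapped KO. MIR9-1HG was at 545 ± 158 in KO and 19.9 ± 14.6 in WT. Both loci give the same mature sequences, shown from RefSeq with the seed, bases 2 to 8, in capitals, because the seed is what pairs with targets.
miR-9-5p: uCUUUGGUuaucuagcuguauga
miR-9-3p: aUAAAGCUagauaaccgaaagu
MIR100HG, the host of let-7a-2, miR-100 and miR-125b-1, was higher as well, at 851 ± 225 in KO and 229 ± 115 in WT. Of 26 microRNA host genes tested 4 were higher and 0 lower; without any 1 of KO 2, KO 3, KO 5 and WT 1, 1 was lower. Mature microRNAs were not measured by these libraries.

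Markers of the dorsal and caudal forebrain were lower in KO. PAX6, a factor of cortical progenitors, had 86.8, 94.4, 142, 139 and 43.0 in KO and 2431, 2186 and 2592 in WT. No KO library came near WT (log2 fold -4.67, adjusted p = 8.70e-08), and OE without Dox was at 905 ± 17.6. LMX1A, a factor of the cortical hem and roof plate, was at 0.925 ± 0.92 in KO and 146 ± 21.2 in WT, and OTX1, of the caudal forebrain and midbrain, at 6.69 ± 3.31 in KO and 808 ± 164 in WT. Of 22 dorsal telencephalon and cortical hem genes 18 were lower and 0 higher in KO than in WT, and in KO against OE without Dox 15 were lower. The members not called were LHX2 (528 in KO and 351 in WT), OTX2 (1586 in KO and 1252 in WT), TBR1 (11.5 in KO and 38.6 in WT) and EOMES (5.87 in KO and 35.1 in WT). LHX2 was called higher without WT 1 (log2 fold 1.57, limma adjusted p = 1.44e-04) and without KO 1, KO 2 and WT 1 (1.74, adjusted p = 1.93e-04), and OTX2 without WT 2 (0.69, adjusted p = 0.0309). The summed level of the list was 2394 to 3019 in KO, 7619 to 7978 in WT and 4300 to 5783 in OE without Dox.

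Genes of the lateral and caudal ganglionic eminences had 8 of 14 lower and 2 higher, with sums of 1834 to 2653 in KO, 8895 to 9616 in WT and 4626 to 5136 in OE without Dox. NR2F2, a nuclear receptor of the caudal eminence, had 111, 122.8, 165, 261 and 135 in KO and 4164, 3712 and 3952 in WT. Every WT library was far above every KO library (log2 fold -4.69, adjusted p = 1.46e-07). ZNF503, of striatal progenitors, fell to 28.02 in KO against 501 in WT, and PROX1, of caudal interneurons, to 73.7 in KO against 271 in WT. The genes given here were all lower and do not stand for the whole list. The 2 higher members, 14.3% of the list against a background of 6.96%, are not among them. Without WT 3, 0 of this list were higher, and without WT 2, 1 was.

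The diencephalic list had 11 of 21 lower and 3 higher. BARHL2, a homeobox gene of the diencephalon, had 0.924, 1.89, 1.89, 0 and 0 in KO and 91.8, 172 and 62.4 in WT, so it was near the floor in every KO library (log2 fold -5.85, adjusted p = 3.97e-08). BARHL1 (1.28 in KO and 104 in WT), DBX1 (16.4 in KO and 171 in WT) and FOXB1 (13.6 in KO and 246 in WT), all genes of thalamic, hypothalamic or mammillary domains, were lower too. SIM1, a factor of hypothalamic neurosecretory cells, fell to 0.915 in KO against 37.6 in WT and was at 30.9 in OE without Dox. VAX1, a homeobox gene of the ventral forebrain and optic stalk, was higher (272 in KO and 69.7 in WT). It was the 1 higher member without WT 3, where the calls of SIX3 (log2 fold 0.88, adjusted p = 0.0711 by limma) and SIX6 (2.16, adjusted p = 0.135) were lost. DCT, an enzyme of pigment synthesis that is also expressed in the early telencephalon, was at 273 in KO and 18.1 in WT.

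Markers of further cell types and regions were mostly scarce, apart from the mesenchyme and choroid plexus lists, and often lower in KO. The neural crest and placode list (9 of 17 tested) had 6 lower and 0 higher, and its summed level was 148 to 263 in KO, 676 to 755 in WT and 268 to 477 in OE without Dox. Its defining gene SOX10 had 0 reads in all 3 groups, and PAX7 was at 3.33 in KO and 42.6 in WT. The mesenchyme list (11 of 18 tested) had 4 lower and 1 higher. Its sums were 844 to 1306 in KO and 2294 to 4134 in WT. LUM was at 2.79 in KO and 42.4 in WT, and FOXD1 at 8.93 in KO and 315 in WT. Members with more reads per library in KO included THY1 (958 reads in 5 KO and 311 in 3 WT libraries) and PDGFRB (578 and 235). The choroid plexus and multiciliated list (10 of 18 tested) had 7 lower and 0 higher. TRPM3 (26.2 in KO and 273 in WT) and FOXJ1, the factor of motile cilia (63.4 in KO and 228 in WT), were lower. The sums were 2364 to 3208 in KO and 2547 to 3818 in WT. The most reads were of OTX2 (8599 in 5 KO and 4190 in 3 WT libraries) and PLS3 (4732 and 3648). These are totals over unequal numbers of libraries and give no direction of change. OTX2 was not called, as stated above. Counts of lower genes without WT 3, and without KO 1, KO 2 and WT 1, were 3 neural crest and 4 choroid plexus genes each; without KO 3, 4 choroid plexus genes were lower, and without WT 2, 1 was higher. Midbrain, hindbrain and spinal cord genes (8 of 20 tested) had 3 lower, with sums of 144 to 244 in KO and 381 to 876 in WT. Endothelium and blood genes (2 of 14 tested) summed to 10.2 to 26.8 in KO and 48.3 to 90.3 in WT, with HBG1 at 0 reads in all groups. Epithelial genes (6 of 13 tested, 3 lower, or 1 without WT 1 and 1 without KO 1, KO 2 and WT 1) summed to 105 to 170.0 in KO and 191 to 410 in WT, with KRT14 at 0, and muscle genes (3 of 10 tested) summed to 41.6 to 58.5 in KO and 42.0 to 89.9 in WT, with MYL1 at 0. The part of these cell types in the results was not tested.

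Hedgehog genes were lower in KO, with 9 of 19 lower and 0 higher, although all groups had received SHH and purmorphamine until day 17. SHH itself stood at 127, 84.0, 220.1, 157.2 and 126 in KO and 435, 807 and 703 in WT, with no overlap (log2 fold -2.20, adjusted p = 1.64e-04). GLI1, the transcription factor whose level is the standard readout of the pathway, was at 8.43 ± 2.77 in KO, 184 ± 74.8 in WT and 42.2 ± 9.19 in OE without Dox. GLI2, the main activator, was at 50.2 ± 15.5 in KO, 562 ± 109.8 in WT and 242 ± 79.9 in OE without Dox. HHIP, a membrane decoy for SHH and a known target of the pathway, had 9.24, 7.55, 10.4, 0.898 and 11.6 in KO and 71.9, 404 and 162 in WT. KO 4 was lowest and no KO library reached the WT range (log2 fold -4.49, adjusted p = 1.33e-04). GAS1, a co-receptor, fell to 39.8 in KO against 231 in WT, and SCUBE3, a secreted carrier of SHH, to 452 in KO against 1045 in WT. BOC, a further co-receptor, was at 172 in KO and 628 in WT. PTCH1, the receptor and a target, stood at 1105 ± 238 in KO, 2675 ± 534 in WT and 1358 ± 327 in OE without Dox. The word TGGGTGGTC, known to be bound by GLI factors and searched on both strands, was rare, in 2 of 857 promoters of lower genes (0.233%) and 68 of all 27305 (0.249%).

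BMP and TGF-beta ligands were lower as a list, with 8 of 14 lower and 1 higher. The summed level of the list was 1383 to 2045 in KO, 2281 to 2658 in WT and 1730 to 2121 in OE without Dox. Against OE without Dox 6 of these ligands were called, all lower in KO. GDF7, a ligand of the roof plate, was at 10.2 ± 4.83 in KO and 405 ± 70.7 in WT. GDF10, a relative from the same family, had 0, 0.944, 0.945, 0 and 0 in KO and 118, 94.7 and 182 in WT. The KO values correspond to at most 1 read per library (adjusted p = 1.54e-09), while OE without Dox held 46.9 ± 14.5. TGFB2 fell to 6.11 in KO against 121 in WT and BMP4 to 2.18 in KO against 16.4 in WT. BMP8B was the 1 higher ligand (100.03 in KO and 30.4 in WT), and its call was lost without KO 1, KO 2 and WT 1. Of 18 antagonists and response genes 11 were lower and 2 higher. ID1, a standard BMP response gene, had 11.1, 8.50, 13.2, 19.8 and 5.37 in KO and 153, 224 and 319 in WT, again with no overlap (log2 fold -4.26, adjusted p = 2.90e-06). Its relatives ID2 (74.6 in KO and 479 in WT) and ID3 (122 in KO and 860.1 in WT) were lower too, as were the inhibitory SMAD6 (9.32 in KO and 64.2 in WT) and the antagonist FST (32.5 in KO and 180.0 in WT). The 2 higher ones, NOG (193 in KO and 56.4 in WT) and CHRDL1 (427 in KO and 214 in WT), were both uncalled without WT 3, at log2 folds of 1.62 and 0.73 (adjusted p = 0.062 and 0.187 by limma). CHRDL1 was also uncalled without KO 1, KO 2 and WT 1 and without any 1 of KO 1, KO 2, KO 4 and WT 1 (adjusted p = 0.0591 to 0.286), and NOG without WT 2 (adjusted p = 0.0863), which left 1 higher gene in each case.

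Retinoic acid and FGF genes changed in both directions. Of 15 retinoic acid genes 2 were higher and 3 lower, or 1 higher without WT 1. ALDH1A1, an enzyme that makes retinoic acid, fell to 5.205 in KO against 131 in WT and 127 in OE without Dox. The binding proteins moved oppositely, CRABP1 down (99.4 in KO and 515 in WT) and CRABP2 up (1185 in KO and 622 in WT). Of 26 FGF ligands and feedback genes 3 were higher and 4 lower. FGF14 (156 in KO and 25.0 in WT) and FGF13 (652 in KO and 275 in WT), intracellular partners of sodium channels in neurons, were among the higher ones, and FGF19, a secreted ligand, was lower (6.08 in KO and 53.4 in WT). In the NOTCH list NOTCH1 (2993 in KO and 1500.1 in WT) was higher and the ligand JAG1 (295 in KO and 775 in WT) lower.

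**Figure D4:**
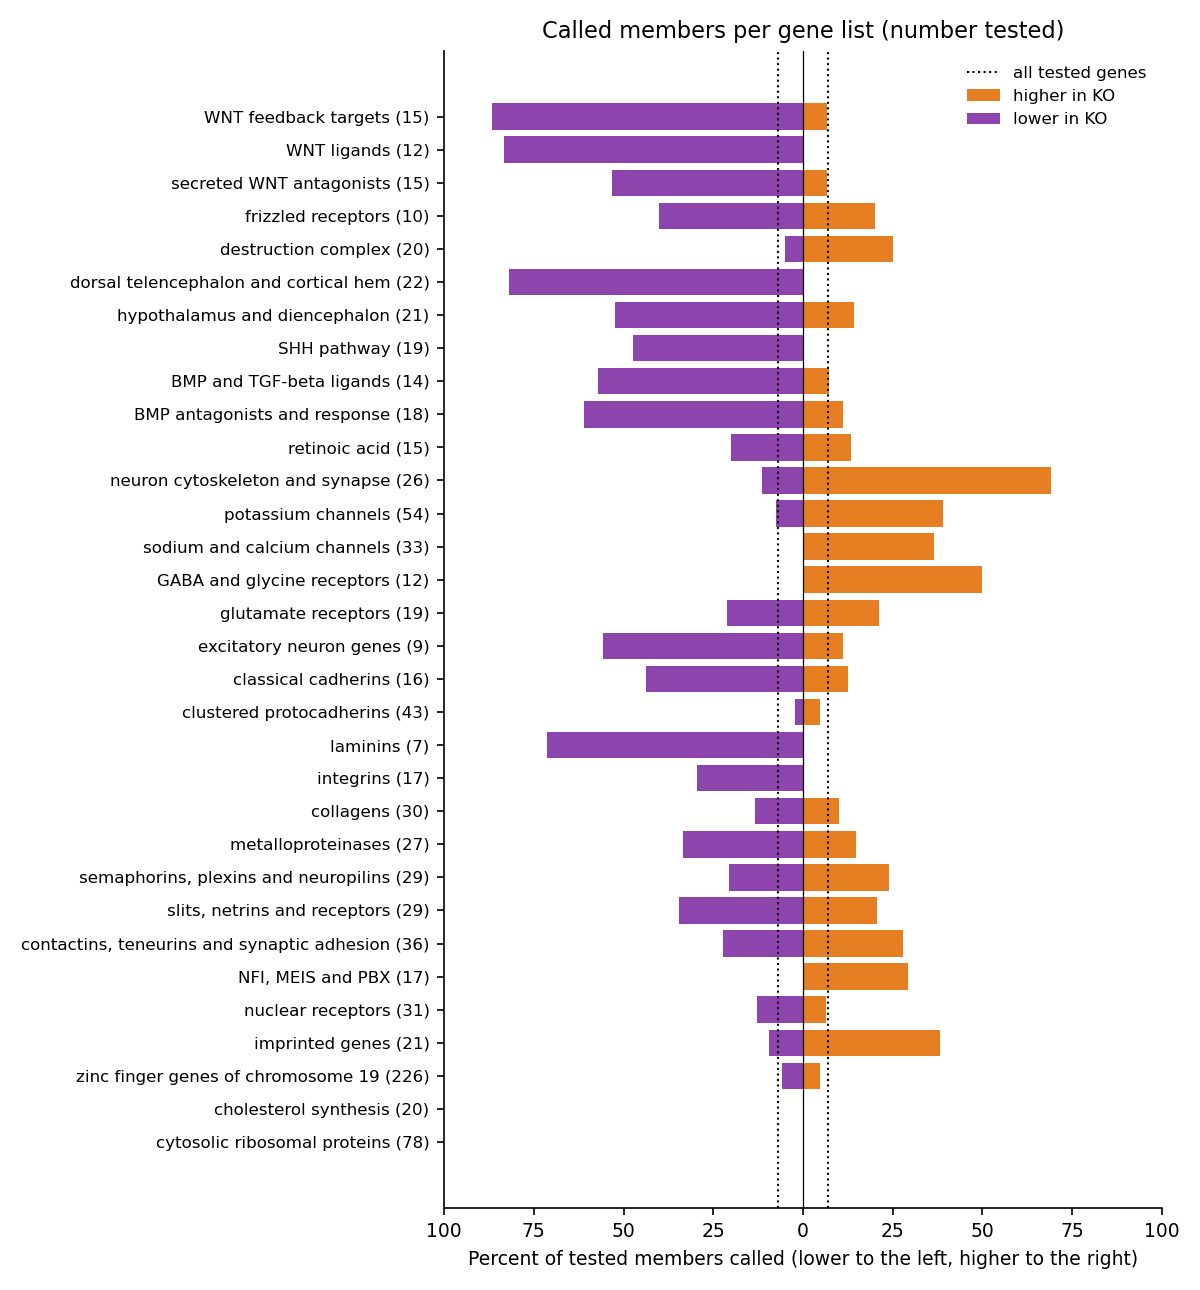
Percent of the tested members of 32 gene lists and families called lower (purple, to the left) and higher (orange, to the right) in KO against WT, with the number tested in brackets. Dotted lines mark all tested genes, 7.03% lower and 6.96% higher. WNT, dorsal, SHH, BMP and laminin lists extend to the left and neuron and channel lists to the right.

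Genes of neuronal excitability were more often higher than lower in KO. Of 33 sodium and calcium channel genes 12 were higher and 0 lower, and of 54 potassium channel genes 21 were higher and 4 lower. SCN1A, a sodium channel of interneurons, had 58.2, 49.1, 81.2, 63.8 and 79.6 in KO and 2.84, 12.5 and 10.4 in WT. Every KO library was above every WT library (log2 fold 2.98, adjusted p = 1.62e-04). SCN3B, a sodium channel beta subunit, was at 474 ± 69.0 in KO and 125 ± 13.99 in WT, and the potassium channel genes KCNH7 and KCNG3 were at 81.5 and 39.8 in KO and at 15.8 and 4.21 in WT. In OE without Dox SCN1A was at 46.3 ± 27.8, SCN3B at 378 ± 65.2 and KCNH7 at 72.6 ± 45.7, and none of the 3 was called against KO. Without KO 1, KO 2 and WT 1, 10 potassium channel genes were higher and 2 lower, and without WT 3 the counts were 13 and 2; 2 were lower without KO 4, without KO 5 or without WT 1.

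Receptors for inhibitory transmitters were higher or not called. Of 12 GABA and glycine receptor genes 6 were higher and 0 lower, among them GABRA5 (39.5 in KO and 7.18 in WT) and GABRB2 (59.2 in KO and 10.8 in WT). Of 19 glutamate receptor genes 4 were higher and 4 lower: GRIK3 (2144 in KO and 403 in WT) and GRIA2 (456 in KO and 125 in WT) rose, and GRIK1 (4.22 in KO and 81.9 in WT) and GRM3 (24.2 in KO and 88.6 in WT) fell. HTR2C, a serotonin receptor gene on chromosome X, was at 179.5 ± 82.4 in KO and 36.2 ± 5.48 in WT, and at 53.9 ± 27.2 in OE without Dox. Genes of excitatory neurons had 1 of 9 higher and 5 lower, or 3 lower without WT 1 and 3 without KO 1, KO 2 and WT 1. The lower ones included BHLHE22 (2.202 in KO and 29.3 in WT) and SLC17A6, a vesicular glutamate transporter (12.01 in KO and 47.0 in WT). Of 21 interneuron genes 3 were higher and 5 lower, or 2 and 2 without KO 1, KO 2 and WT 1. GAD1, the main GABA-making enzyme (687 in KO and 244 in WT), was higher, and MAF, a factor of MGE-derived interneurons (43.0 in KO and 323 in WT), was lower. DLX5 (212 in KO and 188 in WT), GAD2 (270.4 in KO and 198 in WT) and the peptide gene SST (29.95 in KO and 87.3 in WT) were not called.

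Of 26 neuron structure genes 18 were higher and 3 lower. DCX, a microtubule protein of migrating neurons, had 6620.3, 5531, 5842, 6833 and 6043 in KO and 2511, 2966 and 2063 in WT (log2 fold 1.31, adjusted p = 2.00e-06). Every KO library was above every WT library, and OE without Dox, at 5429 ± 811, was near KO. RTN1 (1026 in KO and 314 in WT), MAPT (698 in KO and 279.8 in WT) and STMN2 (4009.9 in KO and 1807 in WT) were higher as well. The 3 lower members were CNTN2 (137 in KO and 386 in WT), NEFM (312 in KO and 695 in WT) and SYT4 (364 in KO and 1496 in WT). Of 18 genes of neuropeptides, peptide hormones and secretogranins 6 were higher and 2 lower, or 4 lower without WT 1. CHGB (294 in KO and 134 in WT) and SCG3 (539 in KO and 268 in WT), proteins of dense-core vesicles, were higher, and the peptide gene TRH was lower (30.02 in KO and 228 in WT).

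The receptor genes NTRK2 and ERBB4 were lower. NTRK2, the receptor for BDNF, had 71.1, 53.8, 59.5, 94.3 and 154 in KO and 1339.5, 1470.2 and 1228 in WT. Its KO libraries lay wholly below WT (log2 fold -4.05, adjusted p = 4.74e-06). ERBB4, the neuregulin receptor of migrating interneurons, fell to 38.7 ± 8.68 in KO against 693 ± 238 in WT. HDC, the enzyme that makes histamine, was at 237 ± 58.6 in KO and 33.5 ± 6.04 in WT, and at 113 ± 52.8 in OE without Dox. MOXD1, a copper-dependent monooxygenase, was at 401 in KO, 48.7 in WT and 168 in OE without Dox.

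Cell adhesion changed member by member. Of 16 classical cadherins 7 were lower and 2 higher. CDH18 (1.31 in KO and 37.0 in WT), CDH8 (33.8 in KO and 192 in WT) and CDH6 (279 in KO and 871 in WT), known for marking brain regions, were lower and CDH12 (30.9 in KO and 5.15 in WT) was higher. CDH2, the N-cadherin that beta-catenin binds in neuroepithelium, was at 2404 in KO and 3429 in WT (log2 fold -0.51); without WT 1 the log2 fold was -0.39 and the call was lost. Laminins had 5 of 7 lower and none higher, among them LAMA4 (8.44 in KO and 77.2 in WT) and LAMB1 (48.5 in KO and 122.97 in WT); 3 were lower without WT 2, and 3 without KO 1, KO 2 and WT 1. Of 27 matrix proteases and their inhibitors 9 were lower and 4 higher, or 2 higher without KO 1, KO 2 and WT 1. ADAMTS15 (24.1 in KO and 226 in WT) and ADAMTS8 (25.4 in KO and 237 in WT) were among the lower ones. Among collagens COL8A1 (67.7 in KO and 4.28 in WT) and COL22A1 (861 in KO and 284 in WT) were higher and COL6A2 was lower (129 in KO and 342 in WT). ANOS1, a secreted matrix protein of olfactory axon growth, had 26.8, 33.0, 34.0, 37.7 and 25.9 in KO and 850.1, 1157 and 1011 in WT. The groups were far apart (log2 fold -4.96, adjusted p = 1.11e-11) and OE without Dox, at 114 ± 29.2, lay between them.

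Axon guidance genes changed in both directions. Slits, netrins and their receptors had 10 of 29 lower and 6 higher, and semaphorins, plexins and neuropilins had 6 of 29 lower and 7 higher. Without KO 1, KO 2 and WT 1, 3 of the semaphorin group were higher, and without WT 1, 4. SLIT3, a repellent ligand, fell to 6.49 in KO against 136 in WT, and NTNG1, a membrane-bound netrin, to 2.96 in KO against 211 in WT. UNC5C, a netrin receptor, was lower (8.30 in KO and 102 in WT) and ROBO2, a slit receptor, higher (466 in KO and 196 in WT). SEMA3D (9.92 in KO and 176 in WT) was lower and SEMA5A (771 in KO and 188 in WT) higher. EPHA7, a receptor for ephrins that is graded across the forebrain, was at 252 ± 155 in KO and 1642 ± 631 in WT.

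Further transcription factors differed. EBF1 (4.83 in KO and 52.1 in WT), EBF2 (3.86 in KO and 41.2 in WT) and EBF3 (23.1 in KO and 147 in WT), factors of neuron differentiation, were lower in KO and stood at 35.2, 30.6 and 107 in OE without Dox. ONECUT1 (10.6 in KO and 57.5 in WT), ONECUT2 (219 in KO and 449 in WT), POU3F4 (100.8 in KO and 808 in WT) and ZIC2 (74.0 in KO and 739 in WT) were also lower than in WT. POU3F4 was at 101.2 ± 43.7 in OE without Dox, and ZIC2 at 339 ± 97.8. NFIA (52.3 in KO and 9.51 in WT) and NFIB (36.0 in KO and 10.1 in WT), factors of later progenitors, were higher, and stood at 46.0 and 60.9 in OE without Dox. The NFIB call was lost without KO 1, KO 2 and WT 1. LMO1, a LIM-only cofactor, was at 308 in KO and 54.9 in WT. SOX9 (982 in KO and 259 in WT) was higher and SOX1 (436 in KO and 937 in WT) lower.

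Several lists of housekeeping and metabolic genes held no called gene. Limma called 0 of 78 cytosolic ribosomal protein genes, 0 of 34 nuclear complex I subunits, 0 of 31 histones, 0 of 20 cholesterol synthesis genes, 0 of 19 hypoxia and glycolysis genes and 0 of 12 genes of the insulin-like growth factor system. At an unadjusted p below 0.05 the counts in these 6 lists were 4, 0, 6, 3, 1 and 2, none was called by edgeR, and 1, 0, 1, 0, 1 and 0 were called by DESeq2. Without 1 library, up to 2 ribosomal protein genes (without WT 2) and 3 histones (without WT 1) were called, and without KO 1, KO 2 and WT 1, 2 histones were. With the replicate number as a block in limma, 1, 1, 5, 0, 0 and 1 genes of these 6 lists were called. In the other lists described with 0 genes in 1 direction, that direction held 0 to 3 genes at an unadjusted p below 0.05, 0 by edgeR and 0 or 1 by DESeq2. With the block, 3 microRNA host genes and 1 sodium or calcium channel gene were lower. Of 25 G2/M genes 9 were lower, among them CENPE (405 in KO and 715 in WT) and CDC20 (282 in KO and 477 in WT), and of 24 G1/S genes 1 was lower. The G2/M count was 3 without WT 2, 3 without WT 3 and 5 without KO 1. CCND1, the D cyclin and a known WNT target, was at 759.8 ± 219 in KO and 1865 ± 466 in WT. Of the YAP and TAZ targets CCN2 fell to 63.3 in KO against 379 in WT.

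On chromosome X a larger share of genes was higher in KO than on the autosomes. Of 655 tested genes on X 132 were higher (20.2%) and 32 lower in KO, or 20 lower without KO 1, KO 2 and WT 1, against 6.39% higher and 7.15% lower of 15420 autosomal genes. Of the 132, 68 were higher by 2-fold or more, and their median log2 fold was 1.07. ARHGEF6, a RAC exchange factor gene on X, had 497, 447, 484, 542 and 459.9 in KO and 68.2, 75.1 and 49.4 in WT. Both groups were tight and far apart (log2 fold 2.92, SE 0.14, adjusted p = 3.31e-10). AFF2 (2429 in KO and 481 in WT), FHL1 (2741 in KO and 1046 in WT), DACH2 (252 in KO and 45.8 in WT) and DMD (743 in KO and 281 in WT) were higher as well. When X was divided after the values were seen, 52 of 138 genes (37.7%) between 100 and 130 Mb and 50 of 151 (33.1%) beyond 130 Mb were higher, against 5.21% to 9.68% in the 3 stretches before 100 Mb. Against OE without Dox 11 X genes were higher and 5 lower, and ARHGEF6 stood at 385 ± 29.3 there. Leaving out 1 library in turn gave 96 to 129 higher genes on X in KO against WT.

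**Figure D5:**
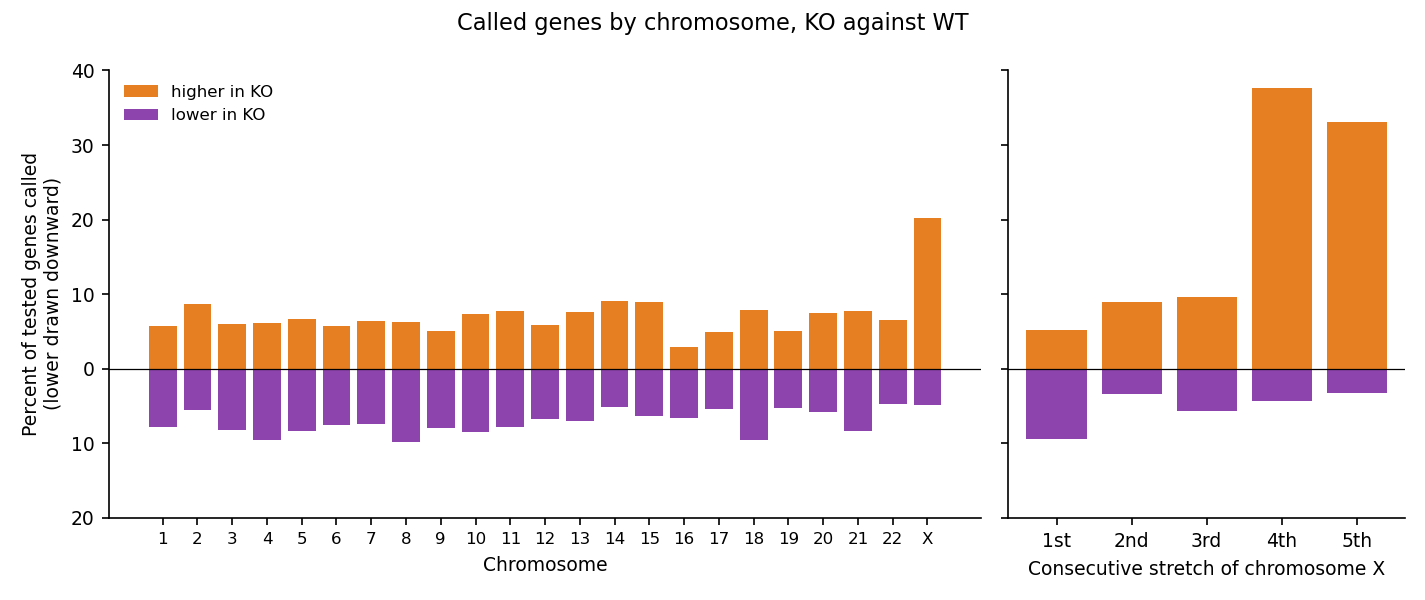
Percent of tested genes called higher (orange, upward) and lower (purple, downward) in KO against WT for each chromosome, and for 5 consecutive stretches of chromosome X with ends at 30, 60, 100 and 130 Mb. X has 20.2% higher, and its stretches beyond 100 Mb have 37.7% and 33.1%.

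Some genes were at or near 0 in KO and in OE without Dox and present in WT. Of the 153 lower genes under 10 in every KO library, 35 were also under 10 in every OE without Dox library. CAT, the peroxisomal catalase, had 0 reads in all 5 KO libraries, 50.2, 78.7 and 96.2 in WT and 0 in all 3 OE without Dox libraries. Set against the floor of 3 reads per library, it was at least 27.1-fold lower in KO than in WT. Of the 35, 7 were ZNF or ZFP zinc finger genes, and of the 153, 9 were. Whether the 35 or the 7 exceed what the tested genes as a whole would give was not tested. Among the 7 were ZNF37A (3.32 in KO and 92.5 in WT) and ZFP28 (2.75 in KO and 89.5 in WT). ZNF229 (1.48 in KO and 68.5 in WT) and ZNF583 (0.935 in KO and 47.3 in WT) were also among them. Zinc finger genes of chromosome 19 as a family had 11 higher (4.87%) and 13 lower (5.75%) of 226, below the background in both directions; without WT 3 the counts were 5 and 7, and without KO 1, KO 2 and WT 1 they were 5 and 8. Without KO 1, 7 were higher. The peptide gene GRP had 0 reads in KO and 13.3, 51.8 and 30.3 in WT. Imprinted genes had 8 of 21 higher and 2 lower. NNAT, a paternally expressed membrane protein gene of neurons, had 12453, 10773, 12277, 13157 and 16243 in KO and 4556, 5799.6 and 5905 in WT, with no overlap (log2 fold 1.26, adjusted p = 2.55e-06). PEG10 (12389 in KO and 6394 in WT), a retrotransposon-derived gene of the placenta and brain, was at 8148 ± 1737 in OE without Dox. MKRN3 (23.5 in KO and 144 in WT) and PLAGL1 (397 in KO and 1203 in WT) were the lower members. Without WT 3, and without KO 1, KO 2 and WT 1, 5 imprinted genes were higher.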

How the data were processed

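Libraries were made from 500 ng total RNA with the NEBNext Ultra RNA kit, per the labels' protocols. Per the submitters' processing notes the tools were TopHat2 2.1.1, HTSeq 0.9.1, R 3.4.0 and DESeq2, on hg38; the strand setting is not given in the sources used here. The authors deposited 1 table of normalized read counts, a signal divided by a size factor per library; 100.0% of values came out as whole reads within a tolerance of 0.01. Symbols and positions came from GENCODE 44 (56948 of 58051 identifiers matched) and promoters and microRNAs from RefSeq (GRCh38.p14).

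Limma 3.58.1 (R 4.3.3) was fitted on log2(value + 1) over all 14 libraries as 4 groups, with a trend and the robust option (residual degrees of freedom: 10) and Benjamini-Hochberg adjustment over the 16197 genes with a value of 10 or more in at least 3 of the 8 KO and WT libraries; the method was tested on simulated data. A fold on this scale understates the change of low genes. Tried instead were a pseudocount of 0.5 or 5, a gene filter of 50 or none, scaling by TMM or the upper quartile, the 2 groups alone, no robust option, a replicate block, edgeR 4.0.16 and DESeq2 1.42.0 on the recovered reads, and each library left out. Leaving out KO 1, KO 2 and WT 1, or fitting them as a second factor, was added after seeing the data.

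Members and lists were chosen with earlier results of these data known. Genes were named by rule: CTNNB1; the 20 largest called rises and falls whose mean was 100 or more and whose groups did not overlap; the 10 largest called mean differences each way; up to 4 called members of each list with the smallest adjusted p; and NKX2-1, LHX6, LHX8, DLX2, SOX2 and NES. The text gives a selection, and a few genes are not reported here. Named after their values were seen were AFF2, BARHL1, BMP8B, BOC, CADM2, CAT, CDH2, CHRDL1, CNTNAP3, DACT1, DBX1, DLX5, DMD, EOMES, FHL1, FST, FZD10, FZD8, GAD2, GSX1, HHIP, JUP, LGR4, LHX2, LINC01206, LINC01896, LRP5, LRP6, LUM, MAPT, NEFM, NEGR1, NOG, NTNG1, OTX2, SCG3, SIX6, SMAD6, SST, SYT4, TBR1, VAX1, WNT3, WNT5B, ZFP28 and ZNF37A. The floor of 3 reads covers counting error only.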

Additional observations from a re-analysis of the deposited data

Results flagged for a closer look

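In the 5 KO libraries, 22 of 334 named genes had 1 library far from the other 4 (gap over range above 0.71), and chance flags about 1 in 20. KO 2 was high for CDK6 (867, others 409 to 539), PTPN14 (90.6, others 36.8 to 49.0), ITGA5 (116, others 49.2 to 62.9), NOG (434, others 107 to 176) and LAMA2 (23.6, others 17.0 to 18.9). KO 1 was high for CTNNA3 (82.2, others 61.4 to 67.1) and TH (99.8, others 69.8 to 77.3) and low for TFAP2A (2.77, others 4.47 to 4.72). KO 3 was low for ITGA6 (344, others 566 to 618), EPHB3 (393, others 742 to 871) and LRP5 (419, others 553 to 606), and high for RORB (198, others 70.8 to 106) and LINC01414 (8.50, others 0.895 to 2.77). KO 4 was high for LEF1 (131, others 76.1 to 86.9), SCUBE3 (623, others 398 to 433), PAX3 (10.8, others 4.47 to 4.72) and AFF2 (2952, others 2186 to 2393). KO 5 was high for ONECUT1 (16.1, others 8.08 to 10.4), DNAH9 (26.8, others 12.6 to 15.1) and DBX1 (34.0, others 9.45 to 16.2), and low for VIM (2865, others 3812 to 4171) and CXCL14 (170, others 232 to 241). All values are normalized counts, and those of TFAP2A, PAX3 and LINC01414 rest on few reads. Many of the 22 flags may be chance, and the causes were not tested.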

How the results depend on the processing

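The counts for KO against WT (1127 genes higher and 1138 lower) moved by less than 1.5 times under every alternative run. On the recovered reads edgeR called 1144 higher and 1181 lower, and DESeq2 1263 and 1288. DESeq2 also called 14 G2/M genes lower (9 by limma), 6 interneuron genes higher (3 by limma) and 5 neuropeptide genes lower (2 by limma), and edgeR 6 of the last. Apart from single libraries left out, they ranged from 797 without KO 1, KO 2 and WT 1 to 1329 with these as a second factor for higher genes, and from 800 with a filter of 50 to 1370 for lower genes. Without 1 library in turn they were 758 to 1117 and 833 to 1139. With the replicate number as a block they were 1102 and 1289, and CTNNB1 was at -0.57 (adjusted p = 0.0138); 10 of 24 G1/S genes were then lower, against 1 without the block. The correlations of same-numbered deviations (0.27, -0.33 and 0.15) lay within those of other-numbered ones (-0.35 to 0.49). With 3 such pairs, and WT deviations tied to each other, these values cannot decide whether the numbers pair the samples. CTNNB1 stayed lower and called in all alternative runs, at -0.57 to -0.79. In KO against OE without Dox, higher genes numbered 31 with a filter of 50, 91 by DESeq2, 34 without KO 1, KO 2 and WT 1, and 22 to 61 without 1 library; lower genes numbered 150 with a filter of 50 and 141 to 245 without 1 library; the block gave 59 and 272. Among uncalled genes the sign changed for NES (0.0003 with upper-quartile scaling, 0.0088 by edgeR, 0.0079 by DESeq2, 0.0530 without KO 1, KO 2 and WT 1, and -0.0995 to 0.0593 without 1 library), JUP (-0.0826 with the block, -0.0944 to 0.2707 without 1 library) and WNT5B (-0.1131 to 0.5604 without 1 library); the cause was not tested. Of 320 named called genes, 46 lost the call without 1 library, 32 of them without WT 3. A floor of 3 reads limits what can be said of genes under a normalized count of 10.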

Other observations

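Adhesion and matrix genes outside the families above differed member by member. Of 36 contactins, teneurins and synaptic adhesion genes 10 were higher in KO and 8 lower, relative to WT, and 6 were higher without KO 1, KO 2 and WT 1. NEGR1 (382 in KO and 125 in WT) and CNTNAP3 (112 in KO and 35.2 in WT) were higher, and CADM2 (51.8 in KO and 261 in WT), CNTNAP2 (657 in KO and 1880.1 in WT) and TENM3 (395 in KO and 1216 in WT), all membrane proteins of axons and synapses, were lower. Outside the clustered families, PCDH17 (503 in KO and 202 in WT) was higher and PCDH8 (12.7 in KO and 128 in WT) lower. Of the tight junction genes CLDN1 fell to 7.78 in KO against 78.7 in WT, with 71.4 in OE without Dox, and CLDN5, the claudin of endothelium, to 4.95 in KO against 34.9 in WT.

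Of 131 long intergenic RNAs 19 were higher and 5 lower in KO. LINC00511 had 159, 177, 151, 131 and 143 in KO and 32.2, 12.5 and 11.3 in WT (log2 fold 3.11, limma adjusted p = 6.24e-07). LINC02762 (122 in KO and 14.4 in WT) and LINC01206 (54.9 in KO and 6.21 in WT) were higher too, and LINC01896 (39.7 in KO and 174 in WT) was lower. Among nuclear receptors, RORB, an orphan receptor of sensory and cortical neurons, was higher than WT (110.0 in KO and 34.2 in WT) and lower in level than OE without Dox (233 ± 44.5; adjusted p = 0.0349). NR2F1, the relative of NR2F2, was at 574 ± 194 in KO, 2894 ± 113 in WT and 1653 ± 287 in OE without Dox.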
